A study of Mus musculus with 8 samples.

Results

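Liver mRNA of re-fed control mice was compared with that of fasted control mice. The mice were C57/BL6 males, 8 weeks old, and went without food for 24 h, after which those of the re-fed groups had food again for 24 h. Both feeding states were also sampled in LMKO mice, a liver knockout of Med23. Med23 is a subunit of Mediator, the bridge between transcription factors and the polymerase that makes mRNA. Each of the 4 groups held 2 livers, so the 4 control libraries are the basis of what follows, and the 4 LMKO libraries served only to estimate the spread between livers and to test whether the response differed between genotypes. The alleles and the Cre driver behind LMKO, and the exact genotype of the control mice, are not stated in these sources. Polyadenylated RNA was sequenced, and each library is a list of 23699 loci with an FPKM value, the number of fragments scaled to transcript length and to the total mapped. A locus was compared if 2 or more of the 4 control libraries reached 1 FPKM, which left 10487 loci, and 9493 of these reached it in all 4.

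The fasted liver supplies glucose to the rest of the body by gluconeogenesis and turns fatty acids into ketone bodies, a state driven by glucagon, by the transcription factors FOXO1 and CREB and by the fatty acid receptor PPARA. After a meal, insulin excludes FOXO1 from the nucleus and raises the transcription factor SREBP-1c, and the liver takes up glucose, stores it as glycogen and builds fatty acids and cholesterol from what remains. Amino acids that arrive with food also release protein synthesis, and with it the secretion of plasma proteins through the endoplasmic reticulum.

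Per control library, FPKM added up to 453652 to 552680, and between 10105 and 10403 loci reached an FPKM of 1. The numbers of fragments behind them are unknown. Across loci, the correlation of log2(FPKM + 1) was 0.966 between the fasted controls, 0.971 between the re-fed controls and 0.891 to 0.931 between a fasted and a re-fed control. Med23 stood at 2.86 and 2.93 FPKM in the fasted and 2.86 and 2.33 in the re-fed controls. The LMKO libraries still listed it, at 2.35 and 2.18 FPKM fasted and 1.61 and 1.74 re-fed. These values lay below the controls of the same feeding state but were far from absent. Rn45s, the ribosomal RNA precursor, was at 306 and 388 FPKM in the fasted controls and at 802 and 3448 in the re-fed controls. All 8 libraries list albumin (Alb) at 0, which cannot be its true level in liver, so a value of 0 is given here only as listed. A number in the names of the deposited files takes one value for every fasted library and another for every re-fed library. Its meaning is not stated, and if it marks a batch, that batch and the feeding state cannot be told apart.

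Re-feeding was accompanied by a wide change of the liver transcriptome. By limma's moderated test, 3659 of the 10487 loci differed between re-fed and fasted controls at an adjusted p under 0.05, which is 34.9%. Of these, 2506 were higher after re-feeding (23.9% of the loci tested) and 1153 were lower (11%). Differences are given as log2(FPKM + 1), re-fed minus fasted, with the standard error (SE) of the fit. A call with a difference above 1 was made for 698 loci, and a call with a difference below -1 for 348. Beyond 3, there were 30 rises and 29 falls. The fasted and re-fed values did not overlap at 69.3% of the loci. With 2 libraries against 2, an exact permutation test of a single gene cannot give a two-sided p below 0.333, so every call rests on the spread pooled by the model.

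The balance of rises and falls depended on how libraries were scaled. The median difference over all tested loci was 0.13 with the FPKM values as deposited, and 68.5% of the calls were rises. After median-ratio scaling the median was -0.0044 and 50.9% of the 3585 calls were rises, and after quantile normalization 50.1% of 3439 were. Of the 3659 calls, 2974 were also made after median-ratio scaling in the same direction, and none in the opposite one. Differences below are therefore read against a shift of 0.13. Counts of calls in a gene list are read against the 23.9% higher and 11% lower of all loci. Leaving out fasted control replicate 2 gave 1642 calls, and leaving out re-fed control replicate 2 gave 1859.

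**Figure D1:**
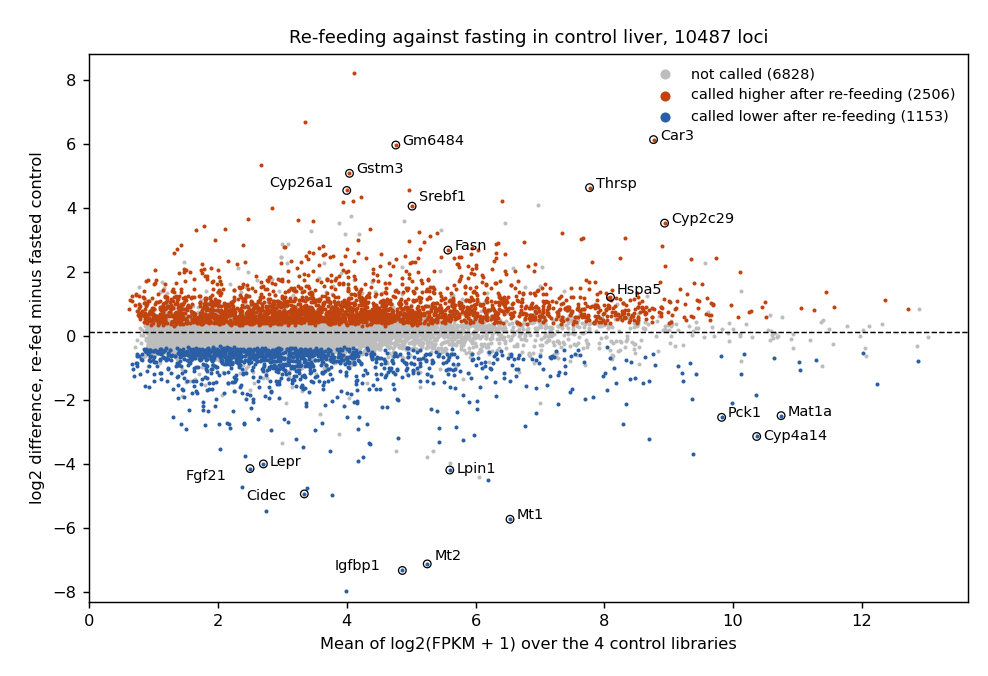
Each point is a locus, with its mean log2(FPKM + 1) over the 4 control libraries on the x axis and the log2 difference between re-fed and fasted controls on the y axis. Red points were called higher (2506), blue points lower (1153) and grey points not called (6828). The dashed line is the median difference of 0.13, and circles mark named genes, from Igfbp1 at -7.33 to Car3 at 6.13.

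Transcript length moved with the feeding state. The 1040 loci with the shortest transcripts, 77 to 1314 bases, had a median difference of 0.56, and 48.4% of them were called higher against 4.04% lower. Among the 1039 loci with the longest transcripts, of 6614 bases or more, the median was -0.25, with 6.45% called higher and 27.3% lower. Both re-fed controls showed the slope, re-fed control replicate 2 more steeply. When a linear trend with length was removed from every library, 3047 loci were called. Counts with that trend removed are given below beside the gene groups described where they moved by over 1.5 times.

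**Figure D2:**
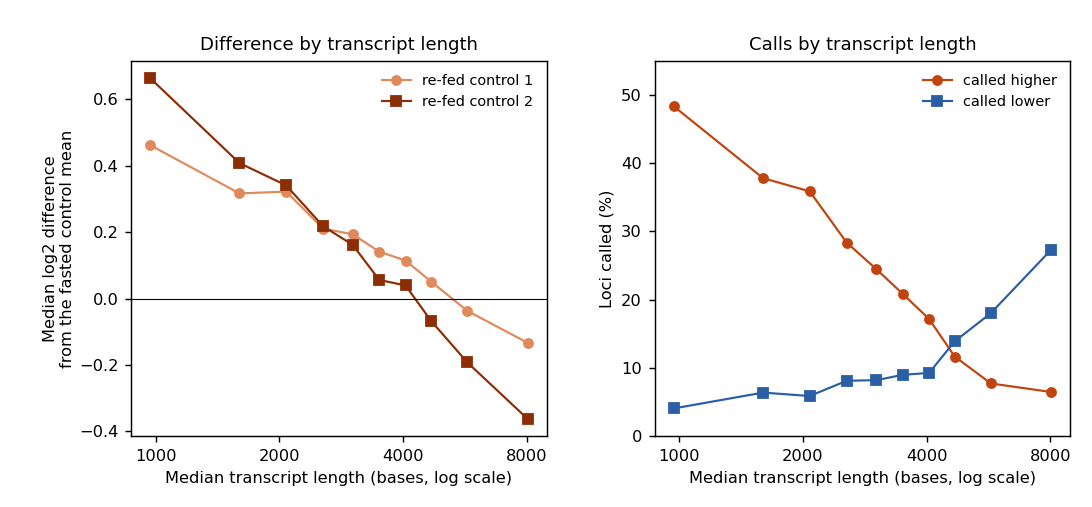
Tested loci with a known transcript length were split into 10 bins of 1037 to 1040 loci, and the x axis gives the median length of each bin in bases on a log scale. The left panel shows the median log2 difference of each re-fed control library from the mean of the fasted controls, which falls from 0.66 to -0.36 in re-fed control replicate 2 and from 0.46 to -0.13 in replicate 1. The right panel shows the percent of loci called higher, which falls from 48.4% to 6.45%, and called lower, which rises from 4.04% to 27.3%.

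Among genes that insulin is known to repress, Igfbp1 fell farthest. Igfbp1, which encodes a secreted protein that binds insulin-like growth factors and is a textbook target of FOXO1, lies at chr11:7097790-7102549 on mm9. It was at 216 and 624 FPKM in the fasted controls and at 0.991 and 1.65 in the re-fed controls. Both fasted livers were thus far above both re-fed livers, with a difference of -7.33 ± 0.64 (SE, adjusted p = 0.00137). Irs2, the insulin receptor substrate that is made in the fasted state, was at 7.86 and 6.68 FPKM in the fasted and 0.890 and 0.765 in the re-fed controls, and fell by 2.18 ± 0.14 (adjusted p = 0.000627). The 20 genes linked to insulin and FOXO1 held 8 lower and 2 higher calls (against 11% lower and 23.9% higher over all loci), with a median of -0.43. The rises included Ppp1r3b, described below with the glycogen genes. The count of 8 was 4 without fasted control replicate 1, 5 without fasted control replicate 2, 5 without re-fed control replicate 2 and 5 with the length trend removed, which gave 4 rises. Foxo1 itself was at 11.1 and 11.9 FPKM in the fasted and 8.15 and 4.87 in the re-fed controls (-0.77 ± 0.20, adjusted p = 0.0255), a call lost without fasted control replicate 1 (0.065), fasted control replicate 2 (0.106) or re-fed control replicate 2 (0.0553), or with the length trend removed (0.0561).

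Gluconeogenesis was represented by 14 genes, of which 6 fell and 1 rose, with a median of -0.53. Pck1 encodes phosphoenolpyruvate carboxykinase of the cytosol, which turns oxaloacetate toward glucose. Its FPKM was 2244 and 2128 in the fasted and 352 and 396 in the re-fed controls. The mean was 5.84-fold higher in the fasted livers, the groups did not overlap, and the difference was -2.54 ± 0.13 (adjusted p = 0.000275). Ppargc1a, the coactivator that drives the program, stood at 6.66 and 6.64 FPKM against 1.79 and 1.84 (-1.44 ± 0.11, adjusted p = 0.000871). Pcx, pyruvate carboxylase, was at 235 and 237 FPKM against 114 and 87.9 (-1.23 ± 0.17, adjusted p = 0.00372). Each of these 3 genes was lower in both re-fed livers than in either fasted liver. Got1, the cytosolic aspartate aminotransferase, was at 445 and 523 FPKM against 157 and 194 (-1.46 ± 0.17, adjusted p = 0.00232).

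The last step of glucose release was less secure. G6pc, the catalytic subunit of glucose-6-phosphatase, was at 301 and 347 FPKM in the fasted and 111 and 82.7 in the re-fed controls (-1.74 ± 0.52, adjusted p = 0.0403). Its call was lost without any 1 of the control libraries, with adjusted p from 0.0891 without re-fed control replicate 1 to 0.167 without re-fed control replicate 2, or without either fasted LMKO library (0.0632). The rise in the list was Gpt, an alanine aminotransferase, from 141 and 112 to 223 and 238 FPKM (0.87 ± 0.16, adjusted p = 0.00854). Fbp1, fructose-1,6-bisphosphatase, and Sds, serine dehydratase, gave differences of 0.02 and -0.04.

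The start of Pck1 is shown because its fall has the smallest p of the gluconeogenic genes and because a cyclic AMP response element is a known part of its promoter. The stretch below is from RefSeq, chr2:173152950-173153017 on the plus strand of GRCm38.p6, a later build than that of the files. Capitals mark the match to TGACGTNA, searched on both strands, which here reads as the reverse complement and begins 93 bases before the start.
Pck1: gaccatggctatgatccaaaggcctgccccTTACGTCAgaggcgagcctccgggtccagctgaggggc
The motif was in 1 of 16 promoters (6.25%) of the 12 gluconeogenic genes matched in RefSeq, Pck1 being the only gene that held it. It was in 4.04% of 10687 promoters of tested loci and 2.52% of all 32851 promoters, all over the 250 bases before the start. The forkhead element GTAAACA was in 1 of 22 promoters (4.55%) of insulin and FOXO1-linked genes and in none of the called members. It was in 2.29% of promoters of tested loci and 3.17% of all promoters, and a count of 1 is too small to set the list apart.

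Genes of glucose entry and glycolysis held more rises than falls. Of these 16 genes, 7 rose and 2 fell, with a median of 0.51. With only the 4 control libraries in the fit, 2 rises and 0 falls were called. Gapdh (0.82 ± 0.16, adjusted p = 0.0114) and Pgk1 (0.74 ± 0.15, adjusted p = 0.0128), enzymes of the lower pathway, rose by less than 2-fold, and both calls were lost with quantile normalization (0.0592 and 0.103). Pklr, the liver pyruvate kinase, was at 46.2 and 25.4 FPKM in the fasted and 82.9 and 54.9 in the re-fed controls, a difference of 0.96 ± 0.48 that did not pass (adjusted p = 0.16). The falls included Ldha, lactate dehydrogenase, at 566 and 486 FPKM in the fasted and 371 and 342 in the re-fed controls (-0.56, adjusted p = 0.0413). Its call was lost without any 1 control library (0.0708 to 0.152) or either re-fed LMKO library (0.0718 and 0.072). Rises in the list numbered 4 after median-ratio scaling, 1 after quantile normalization, 4 without fasted control replicate 2, and, with re-fed control replicates 1 and 2 left out in turn, 3 and 4.

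Ppp1r3c and Ppp1r3b encode subunits that bring protein phosphatase 1 to glycogen and favour its synthesis. Ppp1r3c rose from 3.25 and 3.85 to 16.5 and 40.8 FPKM (2.57 ± 0.48, adjusted p = 0.00941), and Ppp1r3b from 20.3 and 12.7 to 92.9 and 49.1 (2.00 ± 0.33, adjusted p = 0.00652). A further subunit of this family, Ppp1r3g, went in the opposite direction, from 3.04 and 11 to 0.0432 and 0.0156 FPKM (-2.76 ± 0.44, adjusted p = 0.00592). Of the 12 glycogen genes, 4 rose and 2 fell, with a median of 0.26, and the rises numbered 2 after median-ratio scaling, without fasted control replicate 2 or without re-fed control replicate 1. Gys2, the liver glycogen synthase, was at 121 and 192 FPKM in the fasted and 70.1 and 56.6 in the re-fed controls (-1.26 ± 0.34, adjusted p = 0.0281), a call lost without fasted control replicate 2 (0.134), re-fed control replicate 1 (0.0666) or re-fed control replicate 2 (0.129).

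Fatty acid synthesis rose. Of 16 tested genes of fatty acid synthesis and desaturation, 9 rose and none fell, with a median of 1.14 against 0.13 over all loci. Thrsp, which encodes a small protein of lipogenic tissues, was at 57.0 and 32.2 FPKM in the fasted and 1518 and 775 in the re-fed controls (4.63 ± 0.63, adjusted p = 0.00373). Fasn, the fatty acid synthase, was at 22.9 and 13.7 FPKM against 170.5 and 83.2 (2.68 ± 0.38, adjusted p = 0.00423). In both genes the lower re-fed value was more than 3 times the higher fasted value.

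The enzymes that supply the carbon rose with them. Acly, which splits citrate into acetyl-CoA, went from 31.3 and 15 to 145 and 108 FPKM (2.46 ± 0.33, adjusted p = 0.00344). Acss2, which makes acetyl-CoA from acetate, went from 33.6 and 18.1 to 167 and 164 FPKM (2.69 ± 0.26, adjusted p = 0.00146). Mid1ip1, whose product activates acetyl-CoA carboxylase, went from 7.53 and 3.9 to 65 and 62.8 FPKM (3.33 ± 0.30, adjusted p = 0.00138). Each call held without any 1 of the 8 libraries. Scd1, the main liver desaturase, was at 12.4 and 48.3 FPKM in the fasted and 240.5 and 368 in the re-fed controls. Its groups did not overlap, yet the difference of 3.54 ± 1.25 did not pass (adjusted p = 0.0666), and in the 4 control libraries alone it did (0.0257). Pnpla3 stayed under the filter, at 0.0633 and 0.130 FPKM in the fasted and 0.436 and 0.655 in the re-fed controls.

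Among regulators of lipogenesis, Srebf1 rose most. Srebf1 (chr11:60012591-60034106 on mm9) encodes SREBP-1, and was at 12.5 and 3.68 FPKM in the fasted and 154 and 111 in the re-fed controls (4.05 ± 0.49, adjusted p = 0.00263). Mlxipl, which encodes the glucose-responsive factor ChREBP, went from 34.2 and 21.1 to 66.5 and 92 FPKM (1.51 ± 0.27, adjusted p = 0.00817). Its partner Mlx rose by 0.92 ± 0.15 (adjusted p = 0.00586). The pentose phosphate pathway, which supplies NADPH for lipid synthesis, held 5 rises and 1 fall among 8 genes, with a median of 0.71. Pgd, 6-phosphogluconate dehydrogenase, went from 8.54 and 7.97 to 29.7 and 25.0 FPKM (1.61 ± 0.16, adjusted p = 0.00162). The fall was H6pd, the endoplasmic reticulum enzyme of this reaction series, with -0.63 ± 0.14 (adjusted p = 0.017), lost without fasted control replicate 2 (0.0804) or re-fed control replicate 2 (0.0795). Rises in this pathway numbered 3 without fasted control replicate 2.

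**Figure D3:**
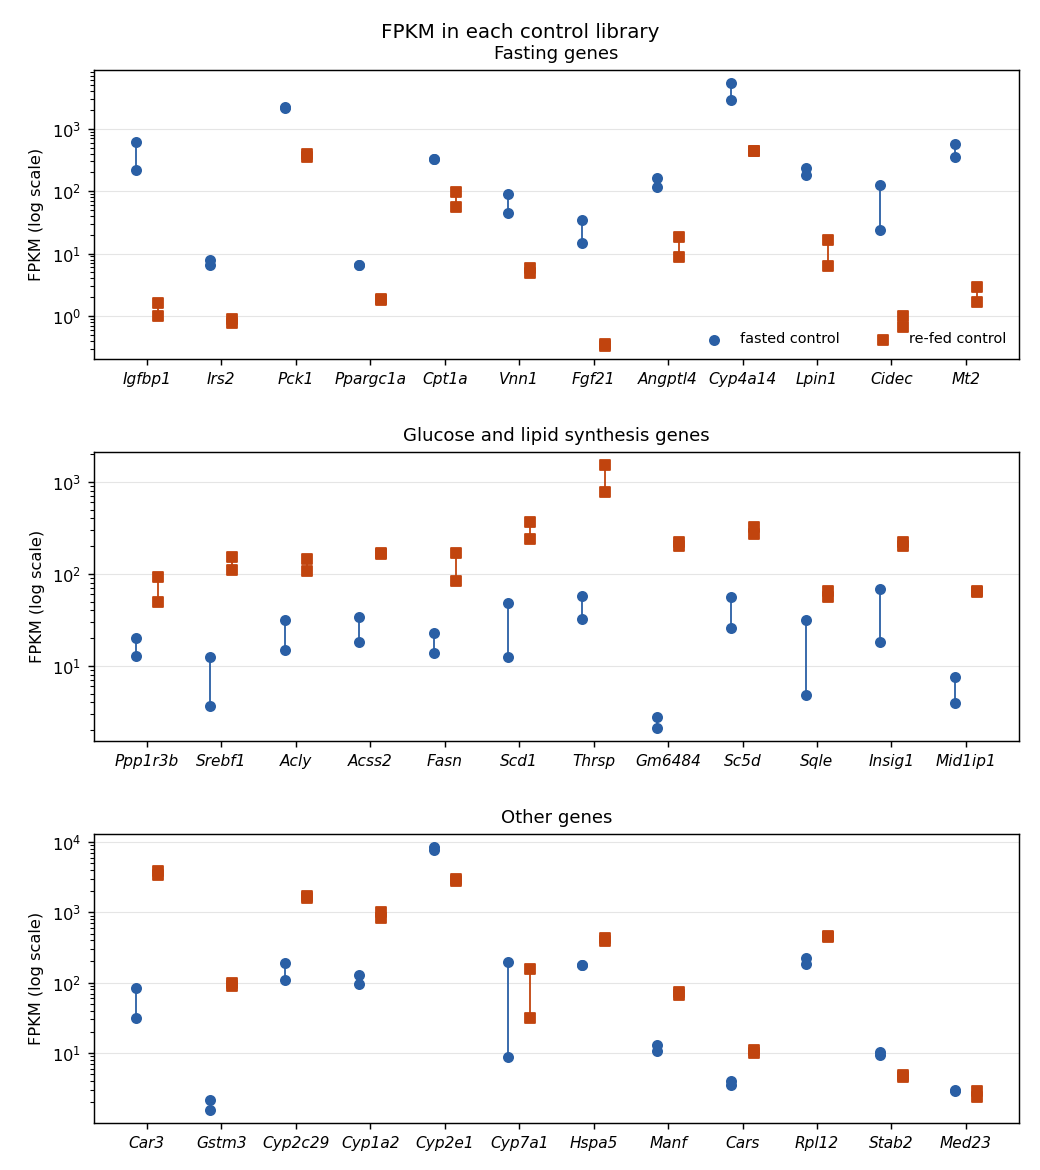
FPKM of 36 genes in each control library on a log scale, with blue circles for the 2 fasted and red squares for the 2 re-fed livers, and a line joining the livers of a group. Pck1, Ppargc1a and Irs2 were tight within each group, while Scd1, Sqle, Insig1 and Cyp7a1 differed widely between the fasted livers, and Cyp7a1 overlapped between the groups.

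Cholesterol synthesis had the highest median of the 40 pathway lists, 2.20, with 12 of 19 tested genes higher and none lower. Sc5d, a late sterol desaturase, was at 55.6 and 25.7 FPKM in the fasted and 271 and 323 in the re-fed controls (2.93 ± 0.34, adjusted p = 0.00237). Acat2, the thiolase that opens the pathway, went from 12.4 and 5.84 to 65.7 and 45.7 FPKM (2.55 ± 0.35, adjusted p = 0.00369). Pmvk, phosphomevalonate kinase, went from 19.6 and 8.92 to 73.6 and 62.9 FPKM (2.27 ± 0.34, adjusted p = 0.00474). The groups of all 3 genes stood apart, and fasted control replicate 2 was the lowest of the 4 libraries in each.

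The size of this group of calls turned on single livers. Without fasted control replicate 2, or without re-fed control replicate 1, 5 cholesterol synthesis genes were called, without re-fed control replicate 2 there were 7, and 15 without fasted control replicate 1. Sqle, squalene epoxidase, was at 31.7 and 4.77 FPKM against 64.5 and 56.6, and did not pass (2.16 ± 0.88, adjusted p = 0.0991). Hmgcs1 was listed at 0 in all 8 libraries and is not among the 19.

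Uptake and sterol sensing showed rises and falls, with 3 higher and 4 lower among 10 tested genes and a median of -0.06 that was 0.26 with the length trend removed. Insig1, which holds SREBP in the endoplasmic reticulum, went from 67.8 and 18.3 to 222 and 203 FPKM (2.55 ± 0.55, adjusted p = 0.0145). Its relative Insig2 moved the opposite way, from 224 and 355 to 34.2 and 79.3 FPKM (-2.41 ± 0.48, adjusted p = 0.0114). Leaving out either re-fed control left 0 rises and 2 falls, and leaving out fasted control replicate 2 left 2 falls. Without fasted control replicate 2 the difference was 1.63 for Insig1, and the call of Insig2 was lost (0.0613). That of Insig1 was lost without either re-fed control (0.0602 and 0.0632). Npc1, which exports cholesterol from lysosomes, was at 64.3 and 57.1 FPKM against 27.0 and 22.4 (-1.27 ± 0.20, adjusted p = 0.00571). The sterol regulatory element written as TCACNCCAC was in 0 of 17 promoters of 14 matched cholesterol synthesis genes. It was in 1.14% of promoters of tested loci. With so rare a motif, 17 promoters are too few for a count of 0 to tell the list from other loci. Other forms of the element, and bases farther from the start, were not searched. The count therefore does not show that these promoters lack sterol elements.

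Fatty acid oxidation fell together with ketogenesis. Cpt1a, the gate for fatty acid entry into mitochondria, was at 322 and 323 FPKM in the fasted and 97.9 and 55 in the re-fed controls (-2.12 ± 0.29, adjusted p = 0.00387). Its groups did not overlap. Of 10 genes of ketogenesis and the carnitine shuttle, 6 fell and none rose, with a median of -0.83. Slc22a5, the carnitine importer, went from 26.7 and 53.5 to 6.68 and 4.78 FPKM (-2.54 ± 0.32, adjusted p = 0.003).

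In mitochondrial and peroxisomal beta-oxidation, 18 of 26 genes fell and 3 rose, with a median of -0.76. Slc27a2, which activates long fatty acids, was at 1304 and 1296 FPKM in the fasted and 333.5 and 334 in the re-fed controls (-1.96 ± 0.11, adjusted p = 0.000507). Etfdh, which passes electrons from beta-oxidation to ubiquinone, was at 232 and 231 FPKM against 106 and 102 (-1.14 ± 0.11, adjusted p = 0.00162). Replicates of these 2 genes were within 1.1-fold of each other in both states. The rises were Etfa (0.39), Acaa2 (0.58) and Echs1 (0.58), and none of them was called after median-ratio scaling or after quantile normalization, which put Etfa at -0.05. With the length trend removed 1 rise was called. Falls numbered 8 without fasted control replicate 2, and, with re-fed control replicates 1 and 2 left out in turn, 11 and 4.

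Genes linked to the fatty acid receptor PPARA had the lowest median of the lists, -2.72, with 13 of 17 tested genes lower and 1 higher. Fgf21, a hormone of the fasted liver, was at 35 and 14.6 FPKM in the fasted and 0.327 and 0.354 in the re-fed controls (-4.15 ± 0.56, adjusted p = 0.00372). Angptl4, a secreted inhibitor of lipoprotein lipase, went from 115 and 162 to 18.2 and 8.76 FPKM (-3.33 ± 0.34, adjusted p = 0.00165). Vnn1, a pantetheinase, went from 44.3 and 90.8 to 5.97 and 4.81 FPKM (-3.34 ± 0.31, adjusted p = 0.00139). In each of these genes both fasted livers were above both re-fed livers. Cyp4a14, a fatty acid omega-hydroxylase, was at 2886 and 5327 FPKM against 441 and 445 (-3.14 ± 0.29, adjusted p = 0.00139). Its near copies Cyp4a10 (-3.67) and Cyp4a31 (-3.77) fell as well, and reads may be shared among the 3. Pdk4, the kinase that blocks pyruvate oxidation, was at 3.81 and 37.4 FPKM in the fasted and 0.988 and 1.14 in the re-fed controls. Its fasted livers differed by about 10-fold, and the difference of -2.72 ± 0.88 passed narrowly (adjusted p = 0.0499). The difference was -4.22 without fasted control replicate 1 (adjusted p = 0.00366) and -1.22 without fasted control replicate 2 (0.111), and the call was lost when any library other than fasted control replicate 1 was left out (0.0618 to 0.151). The rise was Fabp1, the liver fatty acid-binding protein, with 0.85 ± 0.24 (adjusted p = 0.0331), lost after median-ratio scaling (0.0959), with the length trend removed (0.273), or without fasted control replicate 1 (0.118), re-fed control replicate 2 (0.151) or either fasted LMKO library (0.0546 and 0.054).

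Lipid droplet genes fell in the same livers, with 7 of 15 tested genes lower and 1 higher and a median of -0.58. Cidec, which fuses lipid droplets, was at 24.1 and 124 FPKM in the fasted and 0.992 and 0.679 in the re-fed controls (-4.94 ± 0.77, adjusted p = 0.00546). Pnpla2, the adipose triglyceride lipase, went from 67.2 and 132 to 19.1 and 16.6 FPKM (-2.34 ± 0.31, adjusted p = 0.0035). For triglyceride synthesis, 4 of 10 tested genes fell and none rose. Lpin1 and Lpin2 are phosphatidate phosphatases, and Lpin1 also acts as a coactivator of PPARA. Lpin1 was at 179 and 237 FPKM in the fasted and 16.6 and 6.30 in the re-fed controls (-4.19 ± 0.52, adjusted p = 0.00279), and Lpin2 went from 107 and 186 to 39.2 and 20.7 FPKM (-2.27 ± 0.34, adjusted p = 0.00494). Gpam and Dgat2, which catalyse the first and last steps, gave differences of 0.47 and 0.39 and did not pass.

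**Figure D4:**
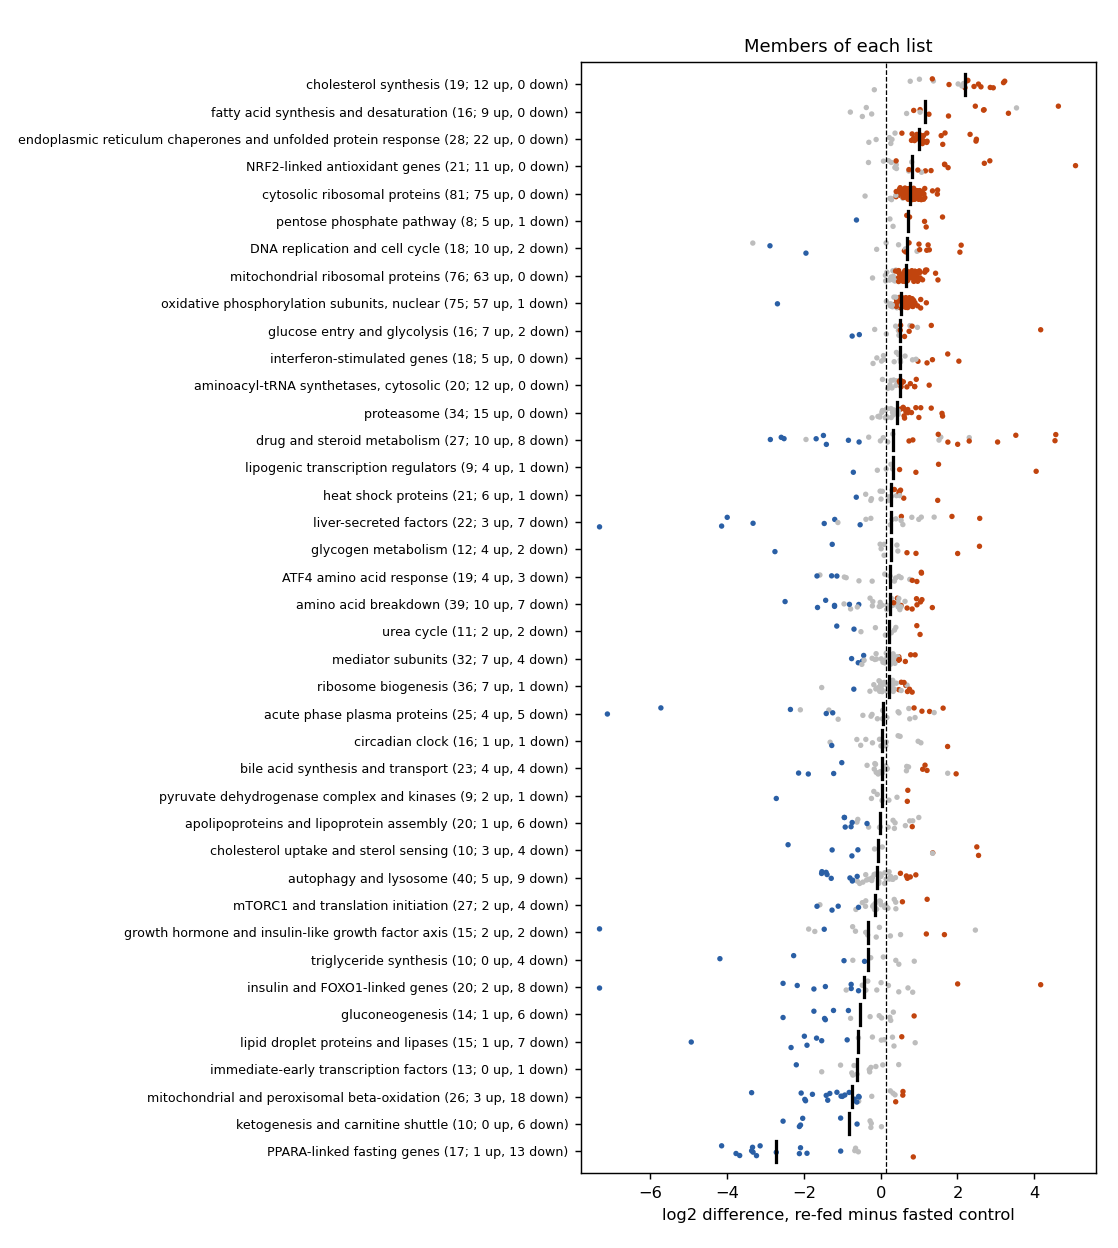
Each row is a list of genes with the number tested and the numbers called higher (up) and lower (down). Points are the log2 differences of its members between re-fed and fasted controls, red where called higher, blue where called lower and grey where not called, black bars are list medians, and the dashed line is the median of all loci, 0.13. Medians run from -2.72 for PPARA-linked genes to 2.20 for cholesterol synthesis.

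Of 39 genes of amino acid breakdown, 10 rose and 7 fell, shares near those of all loci (23.9% and 11%). Mat1a makes S-adenosylmethionine and Ahcy clears the product of methylation. Mat1a was at 3784 and 4379 FPKM in the fasted and 704 and 742 in the re-fed controls (-2.49 ± 0.19, adjusted p = 0.000871), and Ahcy went from 1831 and 1575 to 852 and 638 FPKM (-1.2 ± 0.18, adjusted p = 0.00488). Both genes of the methionine cycle were thus lower in both re-fed livers. Aldh4a1, of proline breakdown, went the other way, from 82.1 and 67.0 to 200.3 and 180.2 FPKM (1.35 ± 0.17, adjusted p = 0.00279). Rises in the list numbered 6 after median-ratio scaling, 2 after quantile normalization, 3 without fasted control replicate 2 and 3 without re-fed control replicate 2. Falls numbered 12 after quantile normalization and 4 without either of those libraries or without re-fed control replicate 1.

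The urea cycle held 2 falls and 2 rises among 11 genes, close to the 34.9% of all loci called. Asl, argininosuccinate lyase, was at 833 and 924 FPKM in the fasted and 406 and 387 in the re-fed controls (-1.15 ± 0.12, adjusted p = 0.00179). Glud1, glutamate dehydrogenase, went from 251 and 191 to 481 and 414 FPKM (1.02 ± 0.16, adjusted p = 0.00586). Nags, which makes the activator of the cycle, rose by 0.94 ± 0.16 (adjusted p = 0.00658). Cps1, the enzyme that this activator acts on, gave -0.70 ± 0.22 (adjusted p = 0.0486), lost without fasted control replicate 2 (0.21), re-fed control replicate 2 (0.215) or any 1 LMKO library (0.0718 to 0.0791). Among 19 tested genes of the ATF4 amino acid response, 4 rose and 3 fell, again near the shares of all loci, and the falls numbered 1 without re-fed control replicate 2. Asns, asparagine synthetase, was at 2.91 and 6.12 FPKM in the fasted and 6.28 and 9.91 in the re-fed controls and did not pass (0.76 ± 1.0, adjusted p = 0.587).

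Of the 20 cytosolic aminoacyl-tRNA synthetases, which load amino acids onto tRNA, 12 rose and none fell, and the median was 0.51. All 20 had a higher value after re-feeding, against 60.1% of all loci tested. Over all loci, 23.9% were called higher. The smallest difference in the list was 0.046, below the shift of 0.13. Cars was at 3.97 and 3.53 FPKM in the fasted and 9.86 and 10.9 in the re-fed controls (1.26 ± 0.11, adjusted p = 0.00138). Wars was at 4.90 and 4.91 FPKM against 10.6 and 9.86 (0.93 ± 0.12, adjusted p = 0.00358). Calls numbered 5 without fasted control replicate 1 or 2 and 4 without re-fed control replicate 1. The amino acid response element, TGATGNAA on either strand, was in 3 of 13 promoters (23.1%) of the 13 matched synthetase genes. It was in 4 of 20 (20.0%) of the ATF4 list, in 1.97% of promoters of tested loci and in 3.45% of all promoters. No called member of the ATF4 list held it. The called members that hold it are Aars and Gars, whose start regions are shown with the match in capitals, 112 and 30 bases before the start. The stretches are from chr8:111033700-111033767 and chr6:55037941-55038000, both on the plus strand of GRCm38.p6 in RefSeq. That of Aars overlaps an annotated exon, and that of Gars does not.
Aars: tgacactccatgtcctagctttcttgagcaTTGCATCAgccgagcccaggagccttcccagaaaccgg
Gars: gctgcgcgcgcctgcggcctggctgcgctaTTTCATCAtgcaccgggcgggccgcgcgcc
Aars was at 28.8 and 39.0 FPKM in the fasted and 69.5 and 56.6 in the re-fed controls (0.88 ± 0.19, adjusted p = 0.0133), a call lost without re-fed control replicate 1 (0.0593) or after quantile normalization (0.0591). Gars was at 19.7 and 20.8 FPKM in the fasted and 32.2 and 29.8 in the re-fed controls (0.59 ± 0.15, adjusted p = 0.0233), and this call was lost without any 1 control library (0.0657 to 0.0865) or after quantile normalization (0.088).

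Chaperones of the endoplasmic reticulum rose as a group. Of 28 tested genes of chaperones and the unfolded protein response, 22 rose and none fell, with a median of 1.0. Hspa5, which encodes the chaperone BiP, was at 178 and 180 FPKM in the fasted and 433 and 397 in the re-fed controls (1.21 ± 0.15, adjusted p = 0.00273). Sdf2l1, a cofactor of BiP, went from 6.04 and 5.2 to 36.4 and 36.0 FPKM (2.49 ± 0.18, adjusted p = 0.000871). Manf, a secreted protein of the stressed endoplasmic reticulum, went from 12.9 and 10.5 to 66.1 and 73.7 FPKM (2.48 ± 0.19, adjusted p = 0.000871). The groups of these 3 genes stood far apart compared with the spread within each. Sec61b, a subunit of the channel through which proteins enter, went from 37.2 and 30.6 to 163 and 185 FPKM (2.33 ± 0.16, adjusted p = 0.000837). The sensors Ern1 (-0.12) and Atf6 (0.26) did not pass, while Xbp1, the factor that Ern1 activates, rose by 0.88 ± 0.16 (adjusted p = 0.00785).

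The box CCAAT, which the factor NF-Y binds, was in 19 of 23 promoters (82.6%) of the 22 matched genes of this list and in 13 of 17 (76.5%) of the 14 matched cholesterol synthesis genes. It was in 35.3% of promoters of tested loci and 33.8% of all promoters, on either strand of the 250 bases before the start. The 3 called genes of smallest p that hold it outside any exon annotated in GENCODE vM21 are shown with the matches in capitals. They are Sdf2l1 (chr16:17132384-17132581, minus strand, 3 matches), Ppib (chr9:66059979-66060082, plus strand, 2 matches) and Pdia6 (chr12:17266428-17266525, plus strand, 2 matches), from RefSeq on GRCm38.p6.
Sdf2l1: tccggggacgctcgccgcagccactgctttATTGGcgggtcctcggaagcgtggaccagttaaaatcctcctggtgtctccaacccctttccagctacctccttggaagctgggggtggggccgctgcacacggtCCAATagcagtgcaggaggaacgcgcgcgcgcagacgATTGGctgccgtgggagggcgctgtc
Ppib: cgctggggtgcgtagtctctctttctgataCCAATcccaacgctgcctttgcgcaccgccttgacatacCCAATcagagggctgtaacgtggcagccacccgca
Pdia6: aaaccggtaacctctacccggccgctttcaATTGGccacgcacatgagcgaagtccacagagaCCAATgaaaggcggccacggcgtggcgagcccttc
Ppib, a prolyl isomerase of the endoplasmic reticulum, went from 141 and 117 to 417 and 411 FPKM (1.68 ± 0.14, adjusted p = 0.00108). Pdia6, a disulfide isomerase, went from 59.2 and 48.4 to 174 and 150.0 FPKM (1.58 ± 0.14, adjusted p = 0.00138).

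Ribosomal and mitochondrial genes rose in large numbers, and transcript length moved with them. Of 81 tested genes of cytosolic ribosomal proteins, 75 rose and none fell, with a median of 0.75 and a median transcript length of 1094 bases. Rpl12 was at 223 and 184 FPKM in the fasted and 456 and 444 in the re-fed controls (1.15 ± 0.13, adjusted p = 0.00232). Rps12 was at 357 and 350 FPKM against 782 and 716 (1.08 ± 0.12, adjusted p = 0.0019). With the length trend removed, 37 of the ribosomal protein genes rose, 1 fell and their median was 0.45. The rises numbered 46 without fasted control replicate 2 and 35 after quantile normalization. Mitochondrial ribosomal proteins held 63 rises among 76 genes (median 0.66), which numbered 38 without re-fed control replicate 2. Mrps12 went from 18.4 and 17.0 to 46.3 and 52.5 FPKM (1.43 ± 0.13, adjusted p = 0.00145). Among 75 nuclear genes of oxidative phosphorylation, 57 rose and 1 fell, with a median of 0.54 and a median transcript length of 1141 bases. Atp5g1, a subunit of the ATP synthase, went from 133 and 137 to 292 and 328 FPKM (1.19 ± 0.12, adjusted p = 0.00162). The rises in oxidative phosphorylation numbered 25 after median-ratio scaling, 11 after quantile normalization, 23 with the length trend removed, 27 and 24 without fasted control replicates 1 and 2, and 21 without re-fed control replicate 2. The part of transcript length in the remaining calls was not tested.

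Genes of protein degradation were listed as the proteasome and as autophagy and the lysosome. In the proteasome, 15 of 34 genes rose and none fell, with a median of 0.43. With the length trend removed the rises numbered 11 and the median was 0.21. Of the 34 genes 25 lie among the 3 shortest of the 10 length bins, in which 35.9% to 48.4% of all loci were called higher. Psme1 and Psme2 encode the activator cap that opens the core particle. Psme1 went from 42.4 and 37.9 to 115 and 135 FPKM (1.61 ± 0.13, adjusted p = 0.00101), and Psme2 from 43.2 and 37.4 to 109 and 141 (1.60 ± 0.16, adjusted p = 0.00165). Calls in this list numbered 9 without fasted control replicate 1 or 2 and 7 after quantile normalization. Autophagy and lysosome genes held 9 falls and 5 rises among 40, against 11% lower and 23.9% higher over all loci. Calls in either direction were close to the 34.9% of all loci, and the median was -0.10. Ulk1, the kinase that starts autophagy, was at 28.1 and 27.6 FPKM in the fasted and 9.81 and 9.70 in the re-fed controls (-1.42 ± 0.10, adjusted p = 0.000871). Wipi1 went from 14.9 and 16.8 to 4.81 and 4.82 FPKM (-1.53 ± 0.12, adjusted p = 0.000984), and Map1lc3b, which coats the autophagosome, from 99.8 and 122 to 43.7 and 45.5 (-1.29 ± 0.16, adjusted p = 0.00273). These 3 genes were lower in both re-fed livers, while the rises included the lysosomal Ctsb (0.69) and Gla (0.92). Falls numbered 14 after median-ratio scaling and 17 after quantile normalization, and rises numbered 3 without fasted control replicate 2 or re-fed control replicate 2.

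Of 27 tested genes of drug and steroid metabolism, 10 rose and 8 fell, with differences from -2.88 to 4.56. Cyp26a1, which degrades retinoic acid, went from 4.17 and 1.12 to 84.6 and 68.4 FPKM (4.54 ± 0.41, adjusted p = 0.00138). Cyp1a2 went from 129 and 94.3 to 1019 and 826 FPKM (3.05 ± 0.24, adjusted p = 0.000984). Cyp2e1, which oxidises ethanol and ketone bodies, fell from 8485 and 7763 to 2764 and 3008 FPKM (-1.49 ± 0.15, adjusted p = 0.00173). Both Cyp1a2 and Cyp2e1 mark the pericentral zone of the lobule, and they moved in opposite directions. Cyp2c29 rose from 188 and 110 to 1736 and 1582 FPKM (3.52 ± 0.35, adjusted p = 0.00165), with reads that near copies of the Cyp2c family may share. Without fasted control replicate 2, and likewise without re-fed control replicate 2, the list held 5 rises and 3 falls.

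Antioxidant genes linked to NRF2 held 11 rises and no fall among 21 tested, with a median of 0.81. Gstm3, a glutathione transferase, was at 1.54 and 2.16 FPKM in the fasted and 98.5 and 90.8 in the re-fed controls (5.08 ± 0.17, adjusted p = 6.74e-05). Gsta4 went from 16 and 10.1 to 75.1 and 104 FPKM (2.70 ± 0.27, adjusted p = 0.00162), and Prdx1, a peroxiredoxin, from 393 and 397 to 996 and 967 (1.31 ± 0.14, adjusted p = 0.00173). Nfe2l2, which encodes NRF2, and its classic target Nqo1 gave 0.81 and 0.73 and did not pass. Rises numbered 7 without fasted control replicate 2 or without re-fed control replicate 2.

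Several of the largest single changes fell outside these lists. Car3, carbonic anhydrase 3 (chr3:14863538-14872373 on mm9), had the largest rise among the genes named by rule. It was at 83.4 and 31.0 FPKM in the fasted and 3859 and 3426 in the re-fed controls (6.13 ± 0.42, adjusted p = 0.000802). Gm6484 (chr9:21639954-21641791 on mm9), the older symbol of Angptl8, a secreted regulator of lipoprotein lipase, followed at 2.81 and 2.10 FPKM against 203 and 223 (5.96 ± 0.34, adjusted p = 0.000513). Both genes rose by over 60-fold in mean FPKM, lack of overlap being a condition of the rule that named them. The metallothioneins Mt1 and Mt2, which bind zinc, were the largest falls after Igfbp1. Mt2 went from 349 and 574 to 1.65 and 2.91 FPKM (-7.12 ± 0.32, adjusted p = 0.000178), and Mt1 from 543 and 837 to 12.2 and 11.3 (-5.73 ± 0.24, adjusted p = 0.000149). Rgs16, a brake on G protein signalling, went from 56.7 and 99.1 to 1.27 and 1.60 FPKM (-4.97 ± 0.84, adjusted p = 0.00686). Lepr, the leptin receptor gene, went from 11 and 55.6 to 0.544 and 0.718 FPKM (-4.00 ± 0.66, adjusted p = 0.00642). Some loci under 200 bases, such as Mir1930 and Mir1898, changed more, and FPKM is unreliable at such lengths.

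Cyp7a1, the rate-limiting enzyme of bile acid synthesis, was at 199 and 8.86 FPKM in the fasted and 155 and 31.0 in the re-fed controls, so each group held a high and a low liver (0.67 ± 1.43, adjusted p = 0.747). Abcb4, the phospholipid exporter of bile, fell from 145 and 160.1 to 45.6 and 35.9 FPKM (-1.89 ± 0.26, adjusted p = 0.00387). In the list of 23 tested bile acid genes 4 rose and 4 fell, close to the 34.9% of all loci called, the rises being lost without re-fed control replicate 2 and numbering 1 without fasted control replicate 2 and 2 without re-fed control replicate 1. Of 16 tested clock genes, Bhlhe40, a repressor that insulin and the clock both act on, rose from 20.8 and 19.2 to 80.9 and 59.2 FPKM (1.74 ± 0.19, adjusted p = 0.00199). The clock gene Rora was called lower (-1.28), a call lost without fasted control replicate 2 (0.124) or re-fed control replicate 2 (0.0716). Arntl, at 1.96 and 1.13 against 0.493 and 2.13 FPKM, and Per1, at 8.85 and 10.7 against 6.98 and 1.32 FPKM, did not pass (adjusted p = 0.834 and 0.0825). Igf1, the growth factor made under growth hormone, was at 146 and 142 FPKM against 193 and 220.3, and did not pass (0.52 ± 0.21, adjusted p = 0.0937).

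Genes of DNA replication and the cell cycle were low, and 18 of the 29 in the list passed the filter. Of these, 10 were higher and 2 lower (against 23.9% and 11% over all loci), with a median of 0.70. Among low genes the filter can admit one through the re-fed livers alone, as it did Mcm6. Rises of such genes are then partly built into the selection, and the count is no evidence on the group. Mcm6, a subunit of the replicative helicase, went from 0.696 and 0.131 to 7.08 and 3.15 FPKM (2.06 ± 0.34, adjusted p = 0.00652). Ccnd1, cyclin D1, went from 0.819 and 1.46 to 3.98 and 3.97 FPKM (1.24 ± 0.19, adjusted p = 0.00498). With a minimum of 5 FPKM 3 of these genes were tested and 1 was called higher. The fall of Cdkn1a, the cyclin-dependent kinase inhibitor p21, from 4.30 and 27.7 to 0.764 and 0.576 FPKM (-2.89 ± 0.79, adjusted p = 0.0308), was not called without fasted control replicate 2 (0.0999), re-fed control replicate 1 (0.0944) or re-fed control replicate 2 (0.12). Interferon-stimulated genes held 5 rises and no fall among 18 tested, a share of rises near the 23.9% of all loci. Bst2 went from 33.2 and 67.7 to 165 and 237 FPKM (2.04 ± 0.38, adjusted p = 0.00906), and Isg15 from 2.45 and 4.27 to 11.5 and 15.3 (1.75 ± 0.37, adjusted p = 0.014). None of the 5 was called without re-fed control replicate 2, while the rises numbered 2 without fasted control replicate 1 and 3 without fasted control replicate 2, after median-ratio scaling or with the length trend removed.

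Marker genes of other liver cells were followed as well. Of 12 markers of sinusoidal endothelial cells, 8 fell and none rose, with a median of -0.73. Their summed FPKM was 134 and 135 in the fasted and 91.0 and 101.5 in the re-fed controls. Stab2, a scavenger receptor of these cells, was at 9.30 and 10.3 FPKM against 4.79 and 4.62 (-0.92 ± 0.16, adjusted p = 0.00811). The falls numbered 3 without fasted control replicate 2, 4 without re-fed control replicate 1, 3 without re-fed control replicate 2 and 5 with the length trend removed, the median transcript length of the list being 3549.5 bases. In bulk tissue, fewer cells of a type and less RNA per cell cannot be told apart. Of 12 Kupffer cell markers only Csf1r was called, with -0.74 ± 0.22 (adjusted p = 0.0423), a call lost without either fasted control (0.129 and 0.117) without re-fed control replicate 1 (0.128) or without any 1 LMKO library (0.0567 to 0.0642). The sum of these markers was 137 and 161 against 115 and 156 FPKM. Stellate cell markers held 2 rises and 2 falls among 12, near the 34.9% of all loci called, with sums of 169 and 145.5 against 117 and 154 FPKM. The rises, Acta2 and Col3a1, were both lost without fasted control replicate 1. Without re-fed control replicate 2 none of these markers was called, and the rises numbered 1 without fasted control replicate 2 or any 1 LMKO library. The falls numbered 1 without either fasted control. Acinar, B cell and T cell markers were all below the filter, with the largest sum in a control library at 5.27 FPKM, for T and natural killer cells in re-fed control replicate 2. Of 8 cholangiocyte markers 2 were tested, and their list summed to 12.2 and 8.56 FPKM in the fasted and 29.2 and 32.3 in the re-fed controls. Spp1, osteopontin, made up most of this sum and rose from 10.3 and 5.24 to 25.7 and 24.2 FPKM (1.63 ± 0.26, adjusted p = 0.00579), whereas Krt19, under the filter, was at 0.241 and 0.963 FPKM in the fasted and 0.597 and 2.58 in the re-fed controls. The part of cell composition in the changes described above was not tested.

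The same re-feeding comparison in LMKO livers called 4217 loci (40.2%). Of these, 2726 were called in the same direction in control livers, which is 74.5% of the control calls and 64.6% of the LMKO calls, and 5 in the opposite direction. Of the 928 loci called in control and not in LMKO livers, 830 had the same sign in both. A direct test of the difference between genotypes, the interaction in limma, called 1 locus of 10487 (0.00954%), the 83-base Mir1898. The interaction p was under 0.05 without adjustment for 980 loci. Among genes of usual length, 1300015D01Rik had the smallest interaction p. It fell from 18.1 and 18.9 to 1.72 and 1.41 FPKM in controls (-2.93) and from 4.12 and 3.45 to 0.832 and 1.11 in LMKO livers (-1.28), and the difference of 1.65 ± 0.19 did not pass (adjusted p = 0.291). Srebf1 rose by 4.05 in control and 2.12 in LMKO livers (interaction adjusted p = 0.507), and Igfbp1 changed by -7.33 in control and -4.50 in LMKO livers (interaction adjusted p = 0.503). Neither difference between genotypes passed the test, which with 2 livers per group does not show that the responses were equal.

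**Figure D5:**
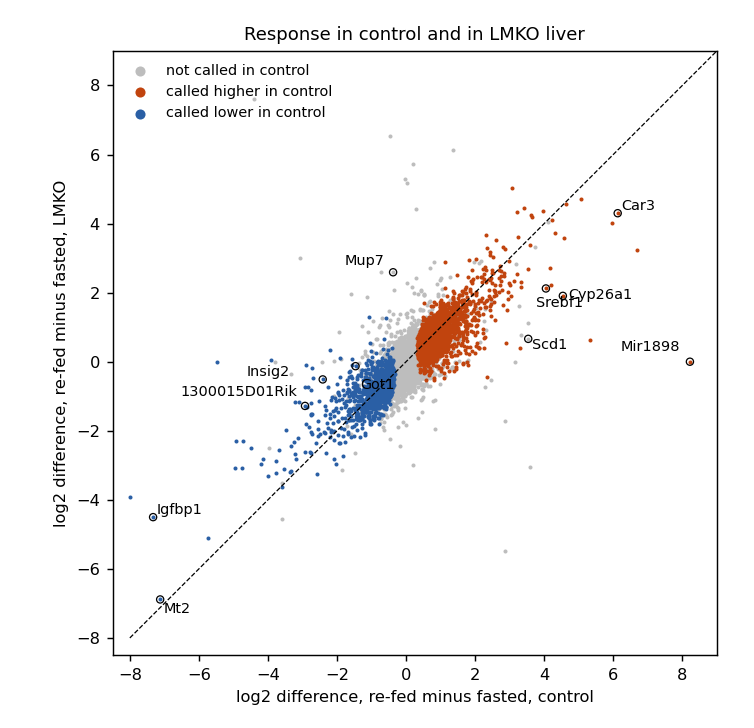
Each point is a locus, with the log2 difference between re-fed and fasted livers in control mice on the x axis and in LMKO mice on the y axis, coloured by its call in control mice. The dashed line marks equal responses, and circles mark named genes. Loci lie along the line, with Srebf1 (4.05 and 2.12) and Igfbp1 (-7.33 and -4.50) nearer 0 in LMKO livers, and the short locus Mir1898 (8.22 in control mice) apart from the rest.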

How the data were processed

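TopHat 1.4.1, Cufflinks 2.0.2, Cuffdiff 2.0.2 and the build mm9 are named, per the submitters' processing notes, with no roles or settings. The values are FPKM per locus, as the authors deposited them, with no scaling added in the main comparison. Any further normalization is not stated. Deposited starts count from 0 and are printed 1 higher.

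log2(FPKM + 1), a scale that understates the change of low genes, was tested with limma 3.58.1 (R 4.3.3). The fit held the 4 group means over all 8 libraries, left 4 degrees of freedom for the spread, and moderated it with eBayes and a trend on the mean. Two-sided p-values were adjusted by the Benjamini-Hochberg method over all 10487 loci, and a locus was called at an adjusted p under 0.05. The script was tested on simulated data. Alternatives were pseudocounts of 0.1 and 0.5, other filters, median-ratio and quantile scaling, other eBayes settings, the 4 control libraries alone, a replicate block, no loci under 200 bases, removal of a linear trend with log2 transcript length, and each library left out in turn. Python 3.11.15 and matplotlib 3.10.9 served for tables and figures.

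The comparison, the 40 gene lists, the 13 marker lists and the promoter motifs were chosen with earlier results of these data known, so lists are described by counts and medians with no test of their own. Lists come from general knowledge. Of several loci with 1 symbol, the locus with the highest mean stands for it. Named genes were 28 genes of fasting and feeding, the 15 largest rises and 15 largest falls (mean of at least 5 FPKM in the higher group, no overlap, at least 200 bases, 1 locus), up to 4 genes of smallest p per list and 6 of smallest interaction p. Not all of these are printed, and Aars, Gars, Pdia6 and some list members, given for their role or for moving against their list, were added after their values were seen. Near copies (Mt1 and Mt2, Cyp2c, Cyp4a, Gstm and Gsta) may share reads, so the split among them is uncertain.

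Replicate numbers are shared between groups in the labels. Deviations of same-numbered fasted and re-fed livers correlated at -0.103 in control and -0.117 in LMKO mice, so the numbers were not taken to pair them.

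Promoters are RefSeq sequences on GRCm38.p6, matched by symbol or synonym: 8394 of the tested loci had an entry. Transcript length is that of the longest GENCODE vM21 transcript of a gene, found for 99.0% of tested loci. Some genes of the lists are counted but not reported here by name.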

Additional observations from a re-analysis of the deposited data

Results flagged for a closer look

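Mir1898, a microRNA locus of 83 bases at chr15:12101247-12101329 on mm9, stood out because its response to re-feeding differed between genotypes in the direct test. The re-fed controls had 286 and 309 FPKM, while both fasted controls and all 4 LMKO libraries list it at 0. The interaction had an adjusted p of 1.72e-06 by limma. FPKM is unstable at such short loci, where few fragments give a large value and 0 may be a failed estimate. With loci under 200 bases left out, no locus passed and the smallest adjusted interaction p was 0.344.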

How the results depend on the processing

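The number of loci called between re-fed and fasted controls, 3659, was 2219 with only the 4 control libraries in the fit and 2274 with a replicate block. Leaving out 1 library at a time gave 1642 to 3222 calls. The interaction with genotype, with 1 call, gave 7 with no filter on low values, 4 with the filter over all 8 libraries, 2 with the replicate block and 0 without loci under 200 bases, where 980 loci of the full set had an unadjusted p under 0.05. Leave-one-out fits gave 1 to 12 interaction calls. A group left with 1 library was assumed to vary like the others. Replicate numbers were not taken to pair the livers. Deviations of same-numbered livers correlated at -0.103 and -0.117, which with 2 livers per group cannot exclude a pairing. Crossing the numbers, chosen after seeing the data, gave 3487 calls in control liver and 4 for the interaction. Of 222 genes named by rule, 190 were called, 140 of them in every alternative, and none of these calls reversed. Apart from a fixed set, these genes were named for their p or size of change in the same data. The shares therefore do not carry over to the 3659 calls. Precision is limited by 2 livers per group and by unknown fragment numbers.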
